A study of Homo sapiens with 6 samples.

Results

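The miR-320 family was represented by 7 of the 147 microRNA (miRNA) hairpins in the deposited table, chosen by name: hsa-mir-320a, hsa-mir-320b-1, hsa-mir-320b-2, hsa-mir-320c-1, hsa-mir-320c-2, hsa-mir-320d-1 and hsa-mir-320d-2 (written without hsa below). They stand for 4 of the 127 listed miRNAs, since miR-320b, miR-320c and miR-320d each have 2 hairpins. The cells were HCT116 DICER-KO, a human colorectal carcinoma line without its own DICER, the RNase III enzyme that cuts the loop off a precursor miRNA. One group received the plasmid pXG-DICER-WT (DICER-WT rescue, 3 samples) and the other pXG-DICER-delHelicase, which encodes DICER without its helicase domain (DICER-delHelicase rescue, 3 samples). Small RNA was sequenced 48 h after transfection. Both groups share the loss of endogenous DICER and depend on a transfected plasmid, and the labels do not say whether the knockout line is 1 clone. The authors deposited 1 variation score per hairpin and construct, with no value per sample, so no difference below has a replicate check or a test. The depth behind the scores is unknown, and so are the formula of the score and the way a group's samples were combined in it.

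Most miRNAs are first cut out of a long transcript by DROSHA in the nucleus and then by DICER in the cytoplasm. The miR-320a precursor is a known exception: its transcript starts at the 5′ end of the hairpin itself, carries a cap there, and needs DICER but not DROSHA. Its 3′ arm strand is the one that is used, and the DICER cut sets the 5′ end of that strand and with it the seed, the bases by which a miRNA pairs with its targets. The table holds no measure of DROSHA, so whether the b, c and d hairpins bypass it was not tested. None of the 16 miRNAs in a list of other hairpins with unusual origins was in the table. That list held miR-484, mirtrons and related intron hairpins, and miRNAs related to snoRNAs or tRNAs.

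The mature sequences show that the family members share their DICER-made end and differ at the other. They are given from RefSeq (GRCh38.p14), 5′ to 3′, with the seed (bases 2 to 8) in capitals.
miR-320b: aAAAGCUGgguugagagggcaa
miR-320c: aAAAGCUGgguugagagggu
miR-320d: aAAAGCUGgguugagagga
The first 18 bases were identical in all 3, and miR-320b and miR-320c were identical over 19. The lengths were 22, 20 and 19 bases, so only the last 1 to 4 bases tell these miRNAs apart. Among 2370 mature miRNA names of the RefSeq table, 4 had this seed: these 3 and miR-4429, which was not in the scores table. An entry for miR-320a was not in the RefSeq table used. The 7 deposited hairpins shared a run of 19 identical bases, and none of the other hairpins held it. Reads of these miRNAs may therefore be hard to assign to 1 hairpin, and the authors' way of assigning them is not known here.

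The hairpins around this shared run were less alike, with 60.6% to 76.3% identical positions over the 21 pairs of deposited sequences (median 71.1%). The 6 RefSeq hairpins are shown with the miRNA in capitals, because the stretch just before it is where the copies differ at the DICER cut.
mir-320b-1: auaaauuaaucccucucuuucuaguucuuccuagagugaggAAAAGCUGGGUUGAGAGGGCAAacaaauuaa
mir-320b-2: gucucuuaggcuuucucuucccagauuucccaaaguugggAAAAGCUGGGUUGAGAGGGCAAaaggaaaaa
mir-320c-1: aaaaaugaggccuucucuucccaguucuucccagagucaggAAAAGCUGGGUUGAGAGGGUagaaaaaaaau
mir-320c-2: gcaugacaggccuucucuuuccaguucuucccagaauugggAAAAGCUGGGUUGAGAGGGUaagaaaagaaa
mir-320d-1: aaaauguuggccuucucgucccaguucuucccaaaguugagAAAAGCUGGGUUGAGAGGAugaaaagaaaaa
mir-320d-2: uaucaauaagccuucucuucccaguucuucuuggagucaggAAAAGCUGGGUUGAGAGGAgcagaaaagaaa
The deposited hairpins held 10 more bases on each side of these.

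The copies are scattered over the genome (GRCh38). mir-320b-1 is annotated at chr1:116671746-116671817 on the plus strand and mir-320b-2 at chr1:224257040-224257110 on the minus strand, in an intron of NVL and on the strand of that gene. mir-320c-1 (chr18:21683518-21683589, plus strand) and mir-320c-2 (chr18:24321675-24321746, plus strand) lie opposite to introns of ABHD3 and OSBPL1A. mir-320d-1 (chr13:40727816-40727887, minus strand) and mir-320d-2 (chrX:140926160-140926231, minus strand) overlapped no other gene of GENCODE 29. The same was true of mir-320b-1 and of mir-320a, whose annotated gene lies at chr8:22244962-22245043 on the minus strand.

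Every hairpin of the family had a higher variation score with DICER-delHelicase than with DICER-WT. The family median was 0.0807 under DICER-WT and 0.173 under DICER-delHelicase. Over the whole table the delHelicase score was the higher one in 72.1% of hairpins, so 7 of 7 members in that direction, from only 4 miRNAs with shared sequence, is not read as particular to the family. All 7 members were higher by at least 0.05, a size reached by 46.3% of all hairpins. The delHelicase score was at least 1.5 times the DICER-WT score in 7 of 7 members and in 61.7% of the 141 hairpins with a DICER-WT score above 0. It was at least 2 times as high in 6 of 7 members and in 46.8% of those hairpins. The median ratio was 2.15 in the family and 1.93 in the table, and the median change was 0.112 and 0.0261.

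The members differed among themselves with both constructs. miR-320a, the family member that is also found in the mouse, had the highest DICER-WT score and the smallest change. hsa-mir-320a scored 0.104 under DICER-WT and 0.160 under DICER-delHelicase, a ratio of 1.54. It went from the highest of the 7 scores to the lowest.

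The miR-320b hairpins ended with the highest scores of the family. hsa-mir-320b-1 scored 0.0980 with DICER-WT and 0.210 with DICER-delHelicase, and hsa-mir-320b-2 scored 0.0983 and 0.212. Their ratios were 2.15 and 2.16.

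The miR-320c hairpins had the same DICER-WT score to the last deposited digit, 0.0807. With DICER-delHelicase mir-320c-1 scored 0.1726 and mir-320c-2 scored 0.1722, with ratios of 2.14 and 2.13. In ratio the b and c hairpins thus lay within 0.022 of each other, although their scores differed with either construct.

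The miR-320d hairpins started lowest and had the largest changes. hsa-mir-320d-1 scored 0.0411 with DICER-WT and 0.168 with DICER-delHelicase, and hsa-mir-320d-2 scored 0.0425 and 0.174. Their ratios were 4.08 and 4.09, which placed them at ranks 25 and 24 of the 141 hairpins with a ratio, while the other members lay between ranks 62 and 84. A ratio of 4 or more was found in 26 hairpins of the table.

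**Figure D1:**
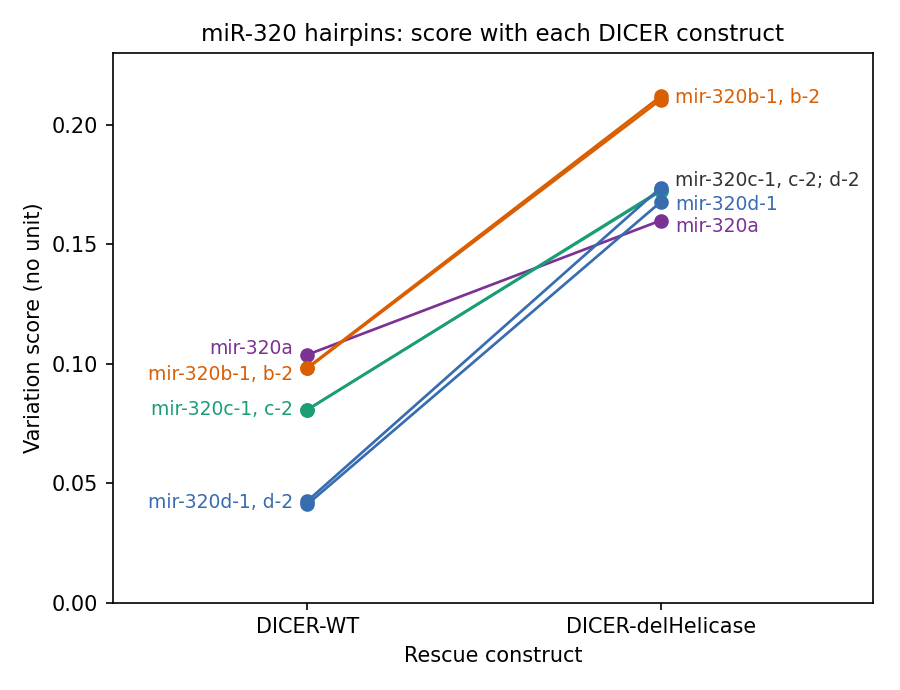
Variation score (no unit, vertical axis) of each miR-320 hairpin with DICER-WT and DICER-delHelicase; each line joins the 2 deposited scores of 1 hairpin, coloured by miRNA, and there are no error bars because no values per sample were used. The DICER-WT scores run from 0.0411 to 0.104, the delHelicase scores from 0.160 to 0.212, and the line of mir-320a crosses those of the other miRNAs.

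The order of the levels changed with the construct. With DICER-WT it was miR-320a, miR-320b, miR-320c and miR-320d, in steps of 0.0056, 0.0174 and 0.0389 between the mean scores of neighbouring miRNAs. With DICER-delHelicase it was miR-320b, miR-320c, miR-320d and miR-320a, in steps of 0.0388, 0.0017 and 0.0107. The only yardstick in the data is the difference between copies of 1 miRNA, which is not a replicate error because copies can share reads. Copies of a miR-320 miRNA differed by 0 to 0.0014 with DICER-WT and by 0.00036 to 0.0060 with DICER-delHelicase. The step from miR-320c to miR-320d with DICER-delHelicase was within that range. The other steps were larger than the differences between miR-320 copies under the same construct, but not than those of every miRNA with copies. Among the 16 such miRNAs, copies of miR-29b differed by 0.0197 and 0.0144 and those of let-7a by 0.353 and 0.292, with DICER-WT first. With DICER-WT, copies of 3 of the 16 differed by more than the step from miR-320a to miR-320b, of 2 by more than that from miR-320b to miR-320c and of 1 by more than that from miR-320c to miR-320d. With DICER-delHelicase it was 1 for the step from miR-320b to miR-320c and 2 for that from miR-320d to miR-320a. The order of the levels is therefore a description of these scores. The family's scores spanned 0.0626 with DICER-WT and 0.0520 with DICER-delHelicase, a similar width. The highest score was 2.52 times the lowest with DICER-WT and 1.33 times with DICER-delHelicase, where all scores were higher.

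**Figure D2:**
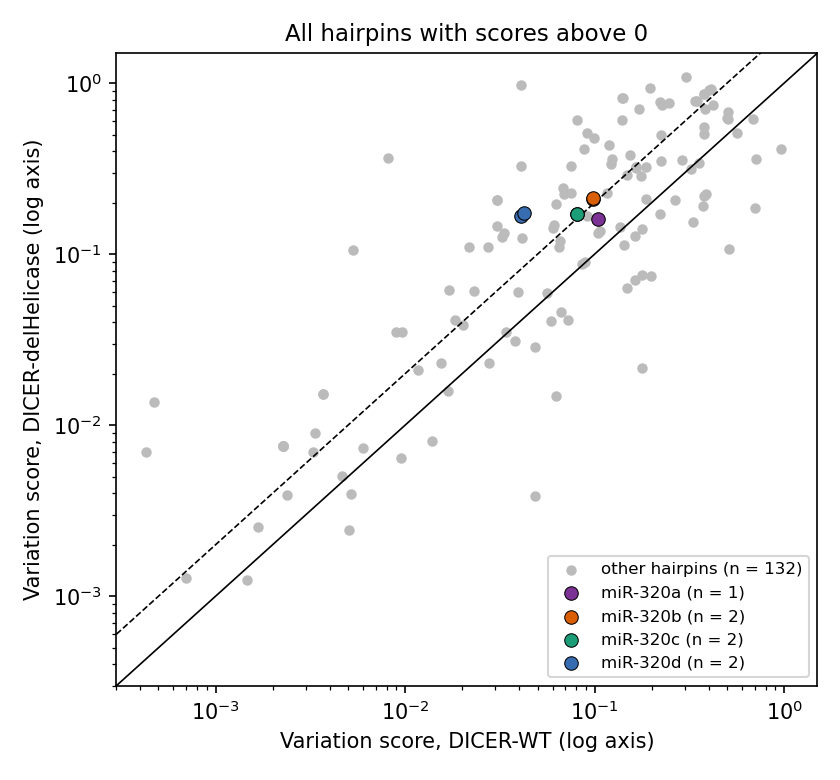
Variation score with DICER-delHelicase against that with DICER-WT for the 139 hairpins with both scores above 0 (both axes logarithmic, no unit); coloured points are the miR-320 hairpins, the solid line marks equal scores and the dashed line a ratio of 2. The b and c hairpins sit just above the dashed line, with ratios of 2.13 to 2.16, the d hairpins well above it at 4.08 and 4.09, and mir-320a between the lines at 1.54.

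Hairpins outside the family that began at similar scores ended over a wider range, but the sets compared are unlike. Outside the family, 24 hairpins had a DICER-WT score between those of mir-320d-1 and mir-320a, a group chosen after the scores were seen. Of these, 18 (75.0%) were higher with DICER-delHelicase, and their median ratio was 2.10. Their delHelicase scores ran from 0.0038 to 0.608 (quartiles 0.0558 and 0.231), and 2 of the 24 lay within the family's range. The family gives only 4 miRNAs, with shared sequence and possibly shared reads, and a range grows with the number of values. Its narrower range is therefore not read as particular to it.

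The hairpins nearest to the family medians over both constructs were mir-181a-1, mir-203b and mir-92a-1, by the straight-line distance of the 2 scores. mir-181a-1 scored 0.0914 and 0.168, mir-203b 0.0626 and 0.196, and mir-92a-1 0.0610 and 0.148, with the DICER-WT score first. This likeness rests on 2 values per hairpin.

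The miR-103 and miR-107 group, which is encoded in introns of PANK genes, and the miR-30 family were also higher in all of their hairpins (3 of 3 and 5 of 5). Their median ratios were 6.78 and 3.50, against 2.15 in the miR-320 family. Their ratios ran from 1.81 to 6.80 and from 1.78 to 7.99. In the first group the spread came from mir-107 at 1.81, since the miR-103a copies had 6.78 and 6.80. Each miR-30 hairpin stands for a different miRNA, unlike the miR-320 copies, so the spreads are not compared. Differences between these groups were not tested.

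The table also gives the offset of the main 5′ end in the DICER-WT libraries and a Yes or No class headed 2-nt. The offset was 0 in all 7 members and in 95.2% of all hairpins. The class was Yes in 1 of 7, mir-320c-1, and in 49.7% of all hairpins. mir-320c-2, which gives the same miRNA and had the same DICER-WT score, was No, so the class follows the hairpin and not the miRNA alone.

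Neither header nor labels define the class, so the deposited hairpins were folded with RNAfold and the position of the miRNA's first base, the DICER cut, was read in the fold of lowest free energy. The distance used is the number of paired bases in a row directly before that base, up to the nearest unpaired base on the same strand, which can belong to the terminal loop or to a bulge or mismatch. DICER is known to favour cuts a short, fixed distance from such an opening. The cut could be placed in 132 hairpins, 6 of them in the family. Exactly 2 paired bases preceded it in 53 of 66 hairpins of class Yes (80.3%) and in 3 of 66 of class No (4.55%). The authors may have set the class from a predicted fold of the same hairpin. The match may then only rebuild their label, so it is not read as an independent result.

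In the family, 2 paired bases preceded the cut in mir-320c-1 alone, its only Yes hairpin. The distance was 3 in mir-320b-1 and 4 in mir-320b-2, mir-320c-2 and mir-320d-2. A distance of 3 or 4 was found in 39 of the 132 hairpins (29.5%). In mir-320d-1 it was 1, because a mismatch interrupts the stem, and 4 bases lay between the terminal loop and the cut.

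**Figure D3:**
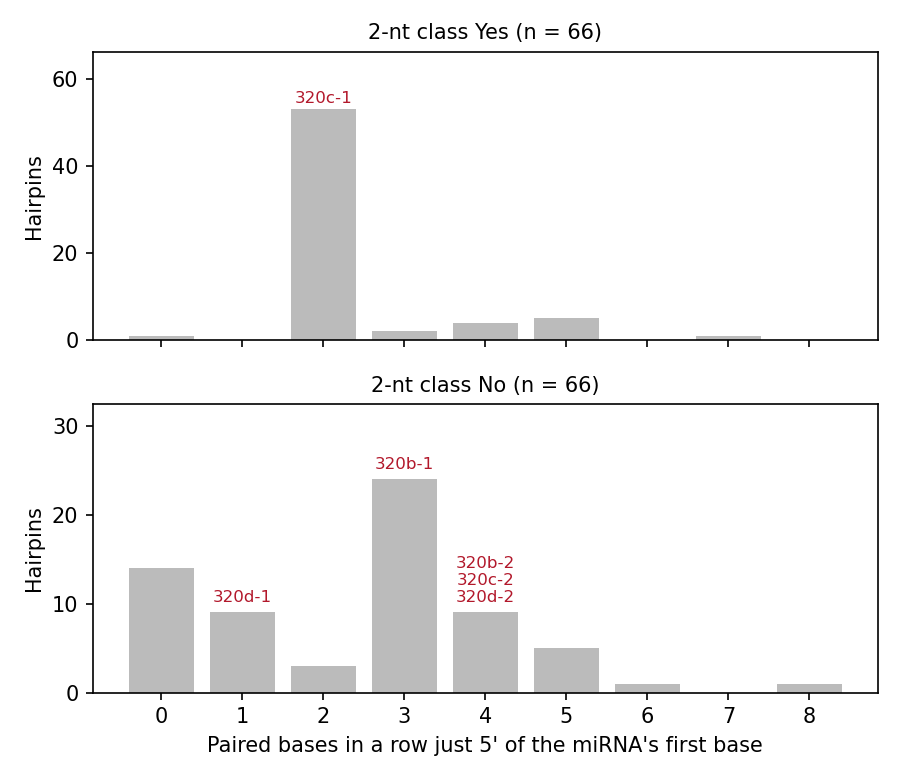
Number of hairpins (vertical axis) by the count of paired bases in a row just 5′ of the miRNA's first base (horizontal axis), for the 66 hairpins of 2-nt class Yes and the 66 of class No; red names mark the bars that hold the miR-320 hairpins. Class Yes peaks at 2 with 53 hairpins, among them mir-320c-1, and the other 5 placed members stand at 1, 3 and 4 in class No.

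The c copies differed at few bases near the cut. Below, the 31 bases around the cut are printed from the deposited hairpins, with the predicted terminal loop in capitals.
mir-320c-1: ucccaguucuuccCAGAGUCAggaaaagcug
mir-320c-2: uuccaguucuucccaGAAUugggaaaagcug
The loop spanned bases 42 to 49 (8 bases) in mir-320c-1 and bases 44 to 47 (4 bases) in mir-320c-2, counted from the 5′ end of the deposited hairpin, and the miRNA began at base 52 in both. After base 17 and up to the end of the miRNA the copies differed at 4 positions, C30U, G46A, C48U and A49G, each with the base of mir-320c-1 first. Bases 48 and 49 were unpaired in mir-320c-1 and paired in mir-320c-2. Over the whole deposited hairpins the copies differed at 28 positions. Many of those outside this stretch were paired in the predicted fold of mir-320c-1 and unpaired in that of mir-320c-2.
The other members had predicted terminal loops of 6 bases in mir-320b-1 and 4 bases in mir-320b-2, mir-320d-1 and mir-320d-2:
mir-320b-1: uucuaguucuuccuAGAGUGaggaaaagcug
mir-320b-2: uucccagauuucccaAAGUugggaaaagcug
mir-320d-1: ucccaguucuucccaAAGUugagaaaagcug
mir-320d-2: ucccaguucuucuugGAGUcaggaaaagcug

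The scores of copies, which may rest on shared reads, were alike at unlike distances. The c copies, at distances of 2 and 4, had equal DICER-WT scores, and the d copies, at 1 and 4, differed by 0.0014. Across the table the median DICER-WT and delHelicase scores were 0.102 and 0.172 in the 56 hairpins with 2 paired bases before the cut. In the 39 hairpins with 3 or 4 they were 0.0862 and 0.144. The cut was placed from the main 5′ end with DICER-WT, and scores of both constructs are grouped by it. The main end with DICER-delHelicase is not known here.

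Apart from mir-320a, the hairpins of the family were AU-rich and had less negative predicted free energies than most of the table. The GC content of the deposited hairpins was 32.6% in mir-320b-1 to 42.4% in mir-320c-1, and 62.0% in mir-320a, against a table median of 51.7%. The predicted free energy was -53.9 kcal/mol for mir-320a and between -24.9 (mir-320d-1) and -37.2 kcal/mol (mir-320b-2) for the other 6, against a table median of -44.2. Counted from the lowest free energy, mir-320a ranked 33 of 147 and the other 6 ranked 115 to 145. The members had 91 or 92 bases. Free energies were not corrected for hairpin length, so ranks over the table can mix length with stability. The member with the most stable fold, mir-320a, was also the one with the smallest change, a description of 7 related sequences. Among the other 6 the changes did not rise steadily from the most to the least stable fold. Whether GC content or stability has a part in the scores was not tested.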

How the data were processed

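The table was used as the authors deposited it: 1 variation score per hairpin and construct, a whole-number offset of the main 5′ end and a Yes or No class, the last 2 from DICER-WT per the file headers. The submitters' processing notes list cutadapt, Bowtie2, bedtools and the build GRCh38. No version or setting is stated there, nor how 3 samples became 1 score. Per the labels' protocols, small RNA was isolated from 10 µg of total RNA on a 12% urea gel.

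The change is the delHelicase minus the DICER-WT score, and the ratio was taken for hairpins with a DICER-WT score above 0, which 6 lacked. Hairpins were folded with RNAfold (ViennaRNA 2.7.2). The cut was placed where the RefSeq mature sequence occurred once in the hairpin, shifted by the deposited offset, which left out 15 hairpins. Identity came from global alignment (Biopython 1.88). The distance step was tested on 200 simulated hairpins. Named hairpins were the members, the 3 nearest to the family medians, and those of the fixed lists. The design had no test, since the table holds no values per sample. The members and lists were chosen with earlier results of these data known.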

Additional observations from a re-analysis of the deposited data

How the results depend on the processing

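The 20 alternative values are given here as ranges. No replicate error was available to judge them by. The SD over single members (0.0258 for the change, 1.03 for the ratio) is too wide to show that a median is stable. The median change of 0.112 ran from 0.0918 to 0.114 with 1 value per miRNA, as a mean, or without the hairpins of 1 miRNA at a time. The median ratio of 2.15 ran from 2.14 to 2.16. The count of 7 higher members was 7 at a change of at least 0.05 and at a ratio of at least 1.5. In the table the share of higher hairpins was 74.3% at offset 0 and 70.1% with 1 value per miRNA, and the median ratio was 1.75 at DICER-WT scores of at least 0.05. That floor was not applied to the family median. The d hairpins, with DICER-WT scores of 0.0411 and 0.0425, lie below it. mir-320c-1 remained the only placed member with 2 paired bases in the centroid and maximum expected accuracy folds. Over all placed hairpins, 51 and 52 of 66 in class Yes and 7 and 6 of 66 in class No then had 2. On log2 scores the nearest hairpins were mir-181a-1, mir-95 and mir-203b. No paired analysis was possible because the scores carry no replicate number; for the same reason no replicate was left out. The unknown depth limits the reading of small differences.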

Other observations

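Copies of 1 miRNA with unlike 2-nt classes were not limited to miR-320c. Of the 16 miRNAs with more than 1 hairpin in the table, 8 had copies of both classes. In 7 of these, namely miR-320c, miR-103a, miR-128, miR-19b, miR-3158, miR-548o and miR-9, the Yes copy had 2 paired bases before the cut and the No copies another number. The exception was miR-101, whose copies both had 2. The copies had the same DICER-WT score in 4 of the 16 miRNAs (miR-320c, miR-199a, miR-941 and, at a score of 0, miR-548o). In 3 of these 4 the delHelicase scores were equal as well, and miR-320c, at a difference of 0.00036, was the remaining one.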
